A study of Mus musculus with 9 samples.

Results

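The proteasome genes of mouse cells labelled HT22 were described across 9 RNA-seq libraries. The genes were taken by symbol: all rows named Psma, Psmb, Psmc or Psmd with a number, together with Psme1 to Psme4, leaving out the immunoproteasome subunits Psmb8, Psmb9 and Psmb10 and any row with fewer than 100 counts over all libraries. This gave 38 genes of 54134 in the count table, and all 38 entered the test. The testis-type alpha subunit Psma8, at 0 counts, and the thymus-type beta subunit Psmb11, at 2 counts, fell under the minimum. The 38 genes comprised 7 alpha and 7 beta subunits of the 20S core, 6 ATPases, 3 further subunits of the base and 8 lid subunits of the 19S cap, 3 chaperones of cap assembly and 4 activators.

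HT22 is an established mouse hippocampal line. The labels write HT22 in some fields and HT-4 as the cell type, and they give a wild-type genotype for every library. The control group received no intervention, the Hb group received oxyhemoglobin, and the Hb+NTR1 group received oxyhemoglobin and NTR1, with 3 libraries in each group. NTR1 is not spelled out in the labels, whereas the series title has NGR1 and names subarachnoid hemorrhage. Doses and times are not in the labels, and no group received NTR1 alone, so Hb+NTR1 against control takes both agents together. Nothing says that separate cultures gave the libraries, so the spread that p-values measure may be technical.

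The proteasome is the protease that degrades most ubiquitin-tagged proteins of the cytosol and nucleus. Its 20S core is a stack of rings in which alpha subunits form the gate and beta subunits enclose the active sites, and its 19S cap binds ubiquitin chains, removes them and threads the substrate inward with a ring of ATPases. Activators such as PA28 and PA200 bind the core in place of the cap, and the transcription factor NRF1, made from Nfe2l1, induces the subunit genes when proteasome activity falls short. In neurons and other long-lived cells the system clears oxidised and misfolded proteins.

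The promoters of the 2 genes that rose most and the 2 that fell most between control and Hb+NTR1 are shown because these genes of the proteasome and its activators moved in opposite directions. They are RefSeq promoters on GRCm38.p6, each from 250 bases before to 50 bases after the annotated start, written along the strand of the gene, with capitals marking a match to TGACNNNGC, the core of the antioxidant response element that NRF1 and the related factor NRF2 bind.
Psme4, chr11:30771525-30771824, plus strand: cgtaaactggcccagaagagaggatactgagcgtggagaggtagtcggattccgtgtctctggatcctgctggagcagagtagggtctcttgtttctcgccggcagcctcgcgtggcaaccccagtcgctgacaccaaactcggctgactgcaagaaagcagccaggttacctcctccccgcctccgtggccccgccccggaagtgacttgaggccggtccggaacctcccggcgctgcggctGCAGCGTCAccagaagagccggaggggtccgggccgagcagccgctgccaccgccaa
Psmd8, chr7:29180624-29180923, minus strand: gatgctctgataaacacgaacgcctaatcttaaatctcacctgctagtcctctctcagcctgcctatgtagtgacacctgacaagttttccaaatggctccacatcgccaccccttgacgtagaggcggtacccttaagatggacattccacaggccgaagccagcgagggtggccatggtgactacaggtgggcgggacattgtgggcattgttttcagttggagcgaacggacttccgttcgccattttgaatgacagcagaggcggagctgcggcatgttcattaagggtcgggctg
Psmb5, chr14:54617946-54618245, minus strand: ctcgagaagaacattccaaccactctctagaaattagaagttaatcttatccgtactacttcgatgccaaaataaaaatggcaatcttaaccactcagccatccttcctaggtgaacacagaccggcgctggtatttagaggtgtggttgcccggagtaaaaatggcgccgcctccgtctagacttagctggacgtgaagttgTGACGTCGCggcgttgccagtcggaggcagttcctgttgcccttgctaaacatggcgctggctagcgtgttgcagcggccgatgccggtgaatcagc
Psme1, chr14:55578244-55578543, plus strand: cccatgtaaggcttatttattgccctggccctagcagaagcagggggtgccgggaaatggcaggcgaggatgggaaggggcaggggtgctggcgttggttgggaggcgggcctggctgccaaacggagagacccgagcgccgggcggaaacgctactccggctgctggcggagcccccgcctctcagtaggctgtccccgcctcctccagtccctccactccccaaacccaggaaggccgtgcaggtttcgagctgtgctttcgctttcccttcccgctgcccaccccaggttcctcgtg

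Both strands were searched for TGACNNNGC and for CCAAT, the core of the NF-Y site, and neither motif contains the other. In Psmb5 the TGACNNNGC match began 47 bases before the start on the gene's own strand, and in Psme4 a match on the opposite strand began 7 bases before the start. Neither motif was found in these windows of Psme1 and Psmd8. Of the 38 genes, 32 had a promoter in the RefSeq table, with 35 promoters in all. TGACNNNGC was present in 6 of these 35, which is 17.1%, against 12.4% of all 32851 promoters of the same length. The 6 belonged to Psmb5, Psmb6, Psmc6, Psmd9, Psmd12 and Psme4. Against control, Psmb5 and Psmb6 were lower with Hb+NTR1, Psmc6 and Psme4 were higher, and Psmd9 and Psmd12 did not pass the test. CCAAT was present in 12 of the 35, which is 34.3%, against 37.4% of all promoters. A match is a description of letters, and binding was not measured.

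The libraries held 13415648 to 16893746 counts, and proteasome genes took 0.645% to 0.741% of them. A limit of 3 counts stood at 0.178 to 0.224 CPM, read counts scaled by library size, in these libraries. The label of a neuronal line was checked against marker genes: 14 of 15 neuron markers were under 1 CPM in control and 4, Map2, Snap25, Slc17a6 and Gad1, had 0 counts in every library. The neuron markers summed to 32.3 to 34.7 CPM in control, to 33.2 to 41.6 with Hb and to 5.78 to 7.59 with Hb+NTR1, of which Tubb3 alone averaged 32.6, 36.8 and 5.26. Summed levels of 11 fibroblast or mesenchymal markers were 16900 to 17800 CPM in control, 14200 to 15400 in Hb and 2760 to 2880 in Hb+NTR1. Of these 11, only 2 were under 1 CPM in control. Summed astrocyte markers, with 4 of 5 under 1 CPM in control and Aqp4 at 0 throughout, were 199 to 229, 115 to 138 and 8.08 to 9.27 CPM. Of these, Slc1a3 alone averaged 211, 123 and 7.07 CPM, and the other 4 stayed under 1 CPM in every group mean. These shifts run along the same groups as the proteasome results, and their part in those results was not tested. In bulk RNA, fewer cells of a type and less RNA per cell cannot be told apart.

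The second Hb library stood apart for the proteasome genes. It had the highest level within the Hb group for 34 of the 38 genes, or 89.5%, against 36.6% of all genes tested. The median of the 38 genes lay 0.17 above the control mean on the log2 scale in that library, against -0.09 in the first Hb library and -0.04 in the third. The median of all genes lay between -0.00566 and 0.0045 of the control mean in the 9 libraries. Results that use the Hb group are therefore given with and without this library.

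**Figure D1:**
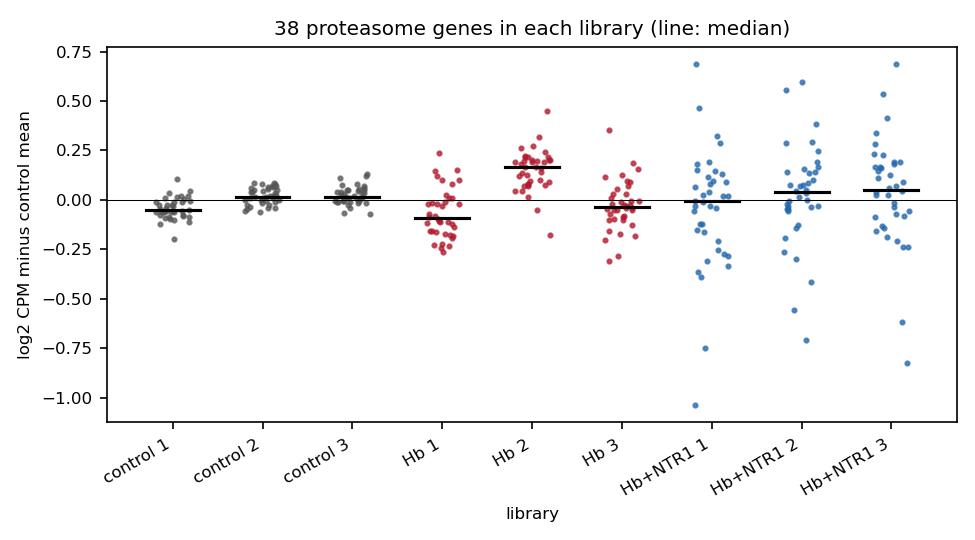
Each point is 1 of the 38 proteasome genes in 1 library, as log2 normalised CPM minus the mean of the 3 control libraries, and the line is the median. The second Hb library sits above the others with a median of 0.17, and the points of the Hb+NTR1 libraries spread widest, from Psmb5 at the bottom to Psme4 at the top.

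Oxyhemoglobin alone was followed by a difference past the threshold in 1 proteasome gene, Psme4, which was higher. The other 37 genes did not pass edgeR's quasi-likelihood test at an adjusted p of 0.05, and 0 of the 38 differed 2-fold. At an unadjusted p under 0.05, 3 were higher and 1 was lower, and the share of all genes under this rule was not counted. DESeq2 called 1 higher and 0 lower, beside 1.98% and 1.93% of all genes. Of all 13810 genes tested, edgeR called 3.65% in this comparison, 1.88% higher and 1.77% lower, so 1 of 38, or 2.63%, is near the background. A 2-fold difference past the test was found for 0.369% of all genes. The median log2 fold change of the 38 genes was 0.03, against 0 for all genes, and the median absolute log2 fold change was 0.07, against 0.12 for all genes. The libraries of the groups did not overlap for 4 of the 38 genes, 2 above control and 2 below, and over all genes for 19.6%, 9.51% above and 10.0% below.

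Psme4 encodes PA200, a nuclear activator that caps the 20S core. Its normalised level in the control libraries was 267, 268 and 271 CPM, in Hb 316, 301 and 343, and in Hb+NTR1 433, 406 and 432. The 3 groups did not overlap, and the control libraries lay within a few CPM of each other. Psme4 was 1.19-fold higher in Hb than in control, a log2 fold change of 0.25 (SE 0.06, n = 3 per group, edgeR adjusted p = 0.0198). This call ended without any 1 of the control libraries, at log2 fold changes of 0.25, 0.25 and 0.26 with adjusted p of 0.0967, 0.111 and 0.0939, and without the third Hb library, at 0.20 with adjusted p of 0.0948. It held without the second Hb library. Adding NTR1 to oxyhemoglobin went with a further 1.32-fold rise over Hb, log2 fold change 0.40 (SE 0.06, edgeR adjusted p = 4.97e-06), and the level stood 1.58-fold above control, log2 fold change 0.66 (SE 0.06, edgeR adjusted p = 2.53e-09).

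Without the second Hb library, Hb differed from control by the edgeR test in 4 proteasome genes. Psme4 was higher, and Psme1, Psma6 and Psmc1 were lower, with log2 fold changes of -0.29, -0.21 and -0.21 and adjusted p of 0.0267, 0.0435 and 0.0296. The share of all genes called was then 7.90%, 3.74% higher and 4.16% lower. The median of the 38 genes was -0.04 on the log2 scale without that library and 0.03 with it. Without the first Hb library the assembly chaperone Psmd5 joined Psme4 among the higher genes, at 0.31 (edgeR adjusted p = 0.042), beside 1.24% of all genes called higher.

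With Hb+NTR1, proteasome genes moved both ways and by small amounts. Against control, 8 were higher and 8 were lower by the edgeR test, and 22 did not pass. Of all genes, 63.6% were called in this comparison, 31.4% higher and 32.2% lower, so the 42.1% of proteasome genes called was below the background. Against Hb, 5 were higher and 8 were lower, and 25 did not pass, which is 34.2% called against 62.3% of all genes (30.7% higher and 31.6% lower). In neither comparison did any of the 38 genes pass the test with a 2-fold difference, while 16.9% of all genes did so against control and 16.0% against Hb. Both comparisons use the same 3 Hb+NTR1 libraries and are not independent of each other.

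The size of the differences showed the same. The median absolute log2 fold change of the 38 genes was 0.14 against control and 0.13 against Hb, compared with 0.44 and 0.42 over all genes. The signed median was 0.04 against control and 0.01 against Hb, compared with -0.00419 and -0.0108 over all genes. The libraries of the groups did not overlap for 17 of the 38 genes against control, 10 above and 7 below, and over all genes for 69.9%, 34.8% above and 35.1% below. Against Hb they did not overlap for 12, 5 above and 7 below, and over all genes for 64.7%, 32.4% above and 32.3% below. Summed over the 38 genes, the level was 6740 ± 158 CPM in control, against 6870 ± 518 in Hb and 7142 ± 207 in Hb+NTR1 (mean ± SD, n = 3). The Hb+NTR1 libraries, at 6911, 7205 and 7309, all lay above those of control, at 6559, 6811 and 6851. The libraries of Hb spanned those of Hb+NTR1. The second Hb library, at 7460, lay above them, and the first and the third, at 6492 and 6658, lay below. These sums were not tested.

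The counts moved with single libraries. Against Hb, leaving out the second Hb library gave 12 genes higher and 5 lower, with 60.5% of all genes called (29.9% higher and 30.6% lower), and leaving out the first Hb library gave 14 lower, beside 29.4% of all genes. Without the first Hb+NTR1 library 5 were lower, beside 28.3%. Against control, the higher genes numbered 5 without the third Hb+NTR1 library, beside 28.3% of all genes. The lower genes numbered 5 without the second control library, 4 without the third and 5 without the first Hb+NTR1 library, beside 29.0%, 29.0% and 28.3% of all genes. Against control, leaving out the second Hb library gave 10 higher and 10 lower, 8 and 8 of them shared with the full fit, beside 65.7% of all genes (32.6% higher and 33.1% lower). Of the 13 genes called against Hb with all libraries, 10 were also called in the same direction without the second Hb library. The 3 lost were Psmb3, Psma7 and Psmc5. Those gained, all higher, were Psma4, Psmb1, Psmb4, Psmc1, Psmc2, Psmc6 and Psmd6.

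**Figure D2:**
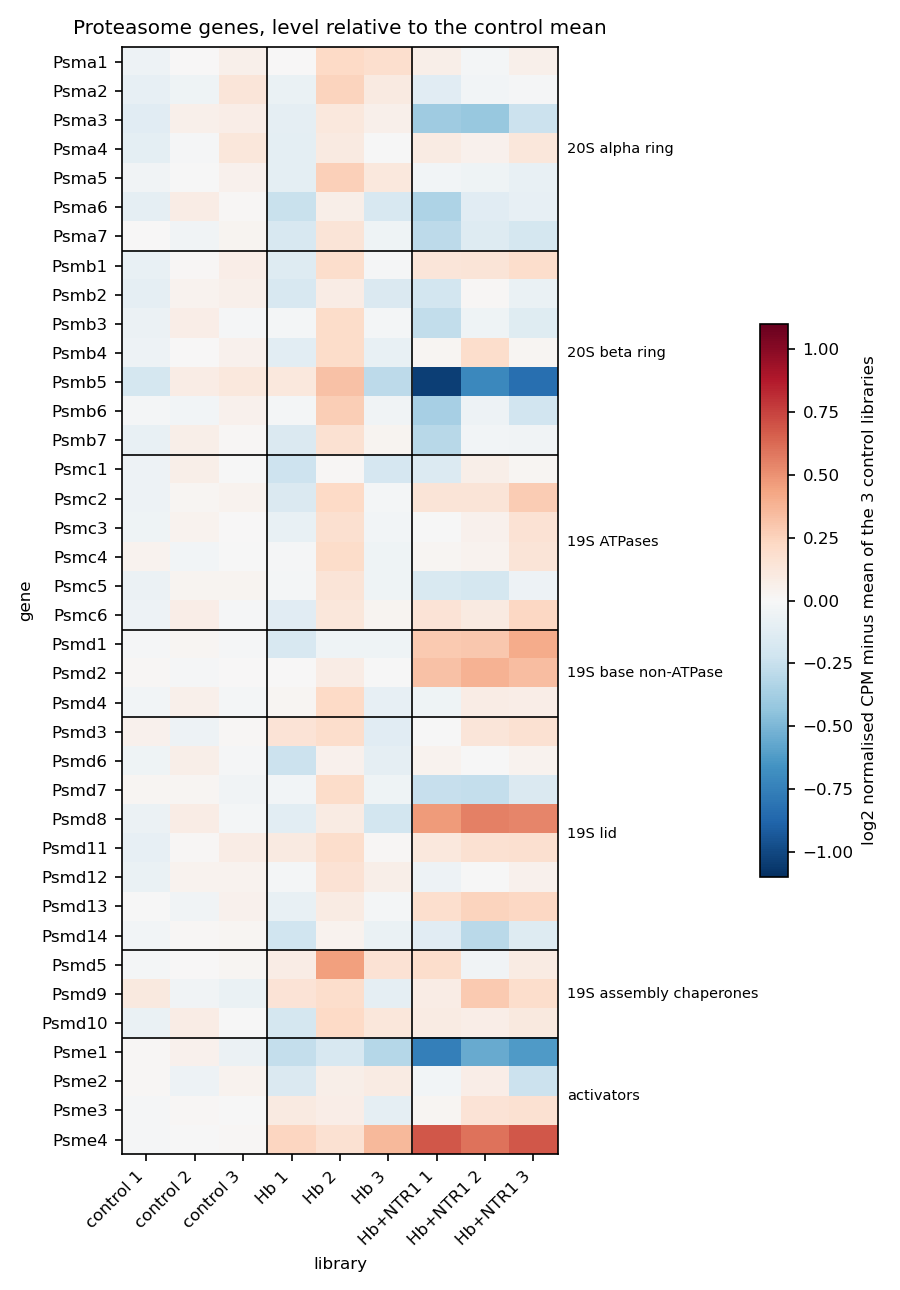
Colour gives log2 normalised CPM minus the mean of the 3 control libraries for each of the 38 proteasome genes (rows, by role) in each library (columns). Psme4, Psmd8, Psmd1 and Psmd2 are red and Psmb5, Psme1 and Psma3 blue in all 3 Hb+NTR1 libraries, and the second Hb library is red over most rows.

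Levels can be compared between genes only per length. In control, normalised CPM per kilobase of exonic sequence was highest for Psmb2, at 162 ± 9.81 (SD, n = 3), followed by Psmb4 at 148 ± 5.50 and Psma6 at 142 ± 9.01. The control libraries of Psmb4 overlapped with those of both Psmb2 and Psma6, so this order is not separated. Core subunits had medians of 85.2 for the beta and 69.7 for the alpha ring, the other base subunits of 82.3, the ATPases of 62.5, the lid of 48.7 and the activators of 27.8. On this length the assembly chaperones were lowest, with a median of 12.8, and Psmd9 had the lowest level of the 38, at 5.90 ± 0.386. Psmb5 stood at 28.0 ± 3.19 per kilobase, low among the beta subunits, whose range was 28.0 to 162. The order depends on the gene model and, for Psmb5, on reads shared with a copy described next to its values.

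Among the alpha subunits, which form the outer rings and the gate of the core, 3 of 7 were lower with Hb+NTR1 than in control. The other 4 did not pass, and 32.2% of all genes were called lower in this comparison. Psma3 had 63.2, 71.4 and 72.3 CPM in control, 64.4, 74.8 and 71.5 in Hb and 52.4, 51.6 and 58.3 in Hb+NTR1. All 3 Hb+NTR1 libraries lay below all others. Psma3 was 1.27-fold lower than in control, log2 fold change -0.35 (SE 0.08, edgeR adjusted p = 0.000591), and 1.30-fold lower than in Hb, log2 fold change -0.38 (SE 0.08, edgeR adjusted p = 0.000283). Of the 50-base stretches of its transcripts, 21.99% also occur in the processed pseudogene Gm13835, whose row held 45.4 ± 4.88 CPM in control and 45.6 ± 2.14 in Hb+NTR1. The 2 rows together fell from 114 ± 8.68 CPM in control to 99.7 ± 4.84, with library ranges of 106 to 123 and 94.8 to 104, and this sum was not tested.

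Psma7 and Psma6 were the other lower alpha subunits, by 1.15-fold and 1.14-fold against control, with log2 fold changes of -0.20 and -0.18 (edgeR adjusted p = 0.0147 and 0.049). The call of Psma7 ended without the third control library, at an adjusted p of 0.0605, without the first Hb+NTR1 library, at 0.0897, and with library totals alone, at 0.0738. That of Psma6 ended without the second or the third control library, at 0.2 and 0.111, without the third Hb library, at 0.0507, and without the first or the second Hb+NTR1 library, at 0.295 and 0.0589. It also ended by DESeq2, at 0.0758, with DESeq2 size factors in edgeR, at 0.0595, and with library totals alone, at -0.12 (0.175). Against Hb, Psma7 was 1.14-fold lower (edgeR adjusted p = 0.029), a call that ended without the second Hb library, at 0.165, and without the first or the third Hb+NTR1 library, at 0.147 and 0.0622, and in a fit to the 6 libraries compared, at 0.0509. Psma1, Psma2, Psma4 and Psma5 did not pass either test, with log2 fold changes from -0.06 to 0.09 against control. The summed level of the ring was 1134 ± 52.5 CPM in control, against 1156 ± 111 in Hb and 1076 ± 26.8 in Hb+NTR1.

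Among the beta subunits, Psmb5, which carries the chymotrypsin-like site that bortezomib blocks, had the largest difference of the 38 genes in both Hb+NTR1 comparisons. Its control libraries held 21.9, 26.5 and 27.1 CPM, its Hb libraries 27.2, 31.2 and 20.6, and its Hb+NTR1 libraries 12.2, 15.3 and 14.1, from 178 to 457 raw counts. All 3 Hb+NTR1 libraries lay below every other library, and Hb and control overlapped. Psmb5 was 1.81-fold lower with Hb+NTR1 than in control, log2 fold change -0.85 (SE 0.14, edgeR adjusted p = 7.25e-06), and 1.90-fold lower than in Hb, log2 fold change -0.93 (SE 0.14, edgeR adjusted p = 2.55e-06). Over all alternatives the log2 fold change against control stayed between -0.95 and -0.77.

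The reads of Psmb5 are not its own alone. Of its 50-base stretches, 54.07% occur in other genes, 46.82% in the processed pseudogene Gm3375, whose row held more counts than Psmb5 itself. Gm3375 fell from 53.4 ± 1.52 CPM in control and 54.7 ± 7.94 in Hb to 32.3 ± 0.779 in Hb+NTR1. Its log2 fold changes were -0.73 against control (edgeR adjusted p = 2.471e-07) and -0.76 against Hb (edgeR adjusted p = 1.301e-07). The 2 rows together fell from 78.6 ± 1.59 CPM in control, in a range of 77.0 to 80.1, to 46.2 ± 2.06, in a range of 44.4 to 48.5. How the authors divided reads between the gene and its copy was not tested, so the level of Psmb5 is uncertain, and its row, the row of the copy and their sum were lower with Hb+NTR1.

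Psmb6, with the caspase-like site, had 182, 181 and 191 CPM in control, 182, 223 and 179 in Hb and 143, 177 and 160 in Hb+NTR1. The Hb+NTR1 libraries were below all others, the second of them narrowly. Psmb6 was 1.22-fold lower than in Hb, log2 fold change -0.28 (SE 0.08, edgeR adjusted p = 0.00408), and 1.15-fold lower than in control, log2 fold change -0.21 (SE 0.08, edgeR adjusted p = 0.0296). The call against control ended without the second or the third control library, at adjusted p of 0.0513 and 0.105, and without the first or the third Hb+NTR1 library, at 0.212 and 0.0747. It also ended with library totals alone, at -0.14 (adjusted p = 0.116).

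Psmb7, with the trypsin-like site, had 104, 115 and 111 CPM in control, 98.7, 124 and 113 in Hb and 89.0, 108 and 108 in Hb+NTR1. The groups overlapped, and neither comparison passed, with log2 fold changes of -0.12 (SE 0.08) against control and -0.14 (SE 0.08) against Hb. Without the first Hb library the difference from Hb passed, at -0.22 (edgeR adjusted p = 0.0234). Its exons overlap those of Nek6 on the opposite strand, and 28.08% of its 50-base stretches are shared with that gene. Psmb3 was 1.15-fold lower than in Hb (edgeR adjusted p = 0.0168), a call that ended without the second Hb library, at 0.0725, and without the first Hb+NTR1 library, at 0.133. Psmb3 did not pass against control, and passed as lower under 4 of the 16 alternatives, at -0.201 to -0.151 (edgeR adjusted p = 0.0074 to 0.0367). Psmb1, Psmb2 and Psmb4, structural subunits with no active site, did not pass either test. Psmb1 passed as higher than in control under 5 of the 16 alternatives, at 0.147 to 0.216 (edgeR adjusted p = 0.00486 to 0.0414), and as higher than in Hb under 2. The summed beta ring level was 1306 ± 56.0 CPM in control, against 1321 ± 147 in Hb and 1282 ± 75.7 in Hb+NTR1.

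Among the ATPases that unfold substrates, Psmc2 and Psmc6 were higher with Hb+NTR1 than in control, by 1.14-fold and 1.12-fold (edgeR adjusted p = 0.0358 and 0.042). The other 4 did not pass, and 31.4% of all genes were called higher in this comparison. The call of Psmc2 ended without any 1 of the control libraries, at adjusted p of 0.141, 0.0703 and 0.0548, or without the third Hb+NTR1 library, at 0.174. That of Psmc6 ended without the first or the third control library, at 0.178 and 0.107, or the first or the third Hb+NTR1 library, at 0.074 and 0.174, and with no filter on low counts, at 0.107. Against Hb, Psmc5 was 1.12-fold lower (edgeR adjusted p = 0.045), and this call ended without any 1 of 6 libraries: the 3 control libraries, at 0.0526, 0.0645 and 0.0631, the second Hb library, at 0.174, and the first and the second Hb+NTR1 libraries, at 0.134 and 0.162. It also ended under 5 of the 7 other alternatives, DESeq2 among them, at adjusted p of 0.0565 to 0.0772. Psmc1, Psmc3 and Psmc4 did not pass in either comparison. The summed ATPase level was 982.6 ± 30.1 CPM in control, against 973.6 ± 91.2 in Hb and 1026 ± 48.5 in Hb+NTR1.

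Of the other base subunits, Psmd1 and Psmd2, the large scaffold proteins also known as Rpn2 and Rpn1, were higher with Hb+NTR1 in both comparisons, and the ubiquitin receptor Psmd4 did not pass in either. Psmd2 had 498, 488 and 496 CPM in control, 497, 522 and 493 in Hb and 618, 645 and 625 in Hb+NTR1. Its Hb+NTR1 libraries lay above all others, and Hb and control overlapped. Psmd2 was 1.27-fold above control, log2 fold change 0.35 (SE 0.06, edgeR adjusted p = 1.48e-05), and 1.249-fold above Hb, log2 fold change 0.32 (SE 0.06, edgeR adjusted p = 4.55e-05). It shares 25.57% of its 50-base stretches with other genes, 24.78% with the pseudogene Gm5422, whose row held 35 to 102 counts per library against 6641 to 9176 for Psmd2.

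Psmd1 had 287, 295 and 288 CPM in control, 256, 280.1 and 280.2 in Hb and 354, 355 and 386 in Hb+NTR1. All 3 Hb+NTR1 libraries were highest, and the Hb libraries were all below control. Psmd1 was 1.26-fold above control, log2 fold change 0.33 (SE 0.06, edgeR adjusted p = 5.42e-05), and 1.34-fold above Hb, log2 fold change 0.42 (SE 0.06, edgeR adjusted p = 2.36e-06). The difference between Hb and control did not pass, at -0.09 (SE 0.06). Psmd4 had 227, 240 and 227 CPM in control, 235, 269 and 217 in Hb and 224, 245 and 243 in Hb+NTR1, with log2 fold changes of 0.04 (SE 0.07) against control and -0.02 (SE 0.07) against Hb. Summed over the 3 genes, the level was 1015 ± 6.46 CPM in control, against 1016 ± 47.5 in Hb and 1232 ± 31.0 in Hb+NTR1, with no overlap between Hb+NTR1 and the rest.

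The lid, which holds the deubiquitinase of the cap, had members on both sides. Against control, Psmd8, Psmd11 and Psmd13 were higher, Psmd7 and Psmd14 were lower, and Psmd3, Psmd6 and Psmd12 did not pass. This stands beside 31.4% of all genes called higher and 32.2% called lower. Psmd8, or Rpn12, a late-joining lid subunit, had 108, 119 and 111 CPM in control, 104, 119.9 and 97.7 in Hb and 155, 166 and 163 in Hb+NTR1. The Hb+NTR1 libraries lay far above the other 6, which overlapped. Psmd8 was 1.43-fold above control, log2 fold change 0.52 (SE 0.07, edgeR adjusted p = 1.15e-06), and 1.51-fold above Hb, log2 fold change 0.59 (SE 0.07, edgeR adjusted p = 1.89e-07). None of its 50-base stretches occur in another gene.

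Psmd7, or Rpn8, the partner of the deubiquitinase Psmd14, went the other way. It had 289.1, 288.6 and 277 CPM in control, 279, 328 and 277 in Hb and 239, 238 and 255 in Hb+NTR1, with all Hb+NTR1 libraries below the others. Psmd7 was 1.17-fold below control, log2 fold change -0.22 (SE 0.07, edgeR adjusted p = 0.00574), and 1.21-fold below Hb, log2 fold change -0.27 (SE 0.07, edgeR adjusted p = 0.00123). Psmd7 also shares no 50-base stretch with another gene.

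Psmd14 itself, or Rpn11, which cuts ubiquitin chains off the substrate, had 164, 168 and 169.5 CPM in control, 143, 172 and 159 in Hb and 154, 136 and 152 in Hb+NTR1. Its Hb+NTR1 libraries lay below control and overlapped with Hb. Psmd14 was 1.14-fold below control, log2 fold change -0.18 (SE 0.07, edgeR adjusted p = 0.0256), and the difference from Hb did not pass, at -0.10 (SE 0.07). The call against control ended without the second or the third control library, at adjusted p of 0.0714 and 0.0793, and without the second Hb+NTR1 library, at 0.16. With library totals alone it also ended, at -0.12 (adjusted p = 0.128). Without the first Hb library the difference from Hb passed, at -0.18 (edgeR adjusted p = 0.0306).

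Psmd13, or Rpn9, had 117, 114 and 122 CPM in control, 111, 126 and 116 in Hb and 133, 139.8 and 138 in Hb+NTR1, which was highest throughout. It was 1.16-fold above control, log2 fold change 0.22 (SE 0.06, edgeR adjusted p = 0.00493), and 1.17-fold above Hb, log2 fold change 0.22 (SE 0.06, edgeR adjusted p = 0.00455). Its exons overlap Sirt3 on the opposite strand over 342 bases, and the Sirt3 row held 73 to 150 counts per library. Psmd11, or Rpn6, was 1.11-fold above control (edgeR adjusted p = 0.0412). That call ended without the first or the second control library, at 0.233 and 0.093, and without the second or the third Hb+NTR1 library, at 0.0927 and 0.112, and with no filter on low counts, at 0.124. The summed lid level was 1538 ± 24.0 CPM in control, against 1569 ± 118 in Hb and 1594 ± 43.3 in Hb+NTR1.

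The assembly chaperones Psmd5, Psmd9 and Psmd10, which hold parts of the base during assembly and are absent from the finished particle, did not pass in any comparison by edgeR or DESeq2. At an unadjusted p under 0.05, 1 was higher in Hb than in control, 1 was higher with Hb+NTR1 than in control, and 0 differed between Hb+NTR1 and Hb. The share of all genes at an unadjusted p was not counted. Psmd10, also called gankyrin, had a log2 fold change of 0.09 (SE 0.09) and Psmd9 one of 0.19 (SE 0.09, edgeR adjusted p = 0.072) in Hb+NTR1 against control. Psmd9 passed without the first control library, at 0.24, without the second or the third Hb library, at 0.18 and 0.19, and without the first Hb+NTR1 library, at 0.24, with adjusted p of 0.0425 to 0.0498. It also passed with library totals alone, at 0.25 (0.0183), and in a fit to the 6 libraries compared, at 0.18 (0.0288). Psmd5 was highest in the second Hb library, at 126 CPM, against 89.8 to 105 in the other 8.

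**Figure D3:**
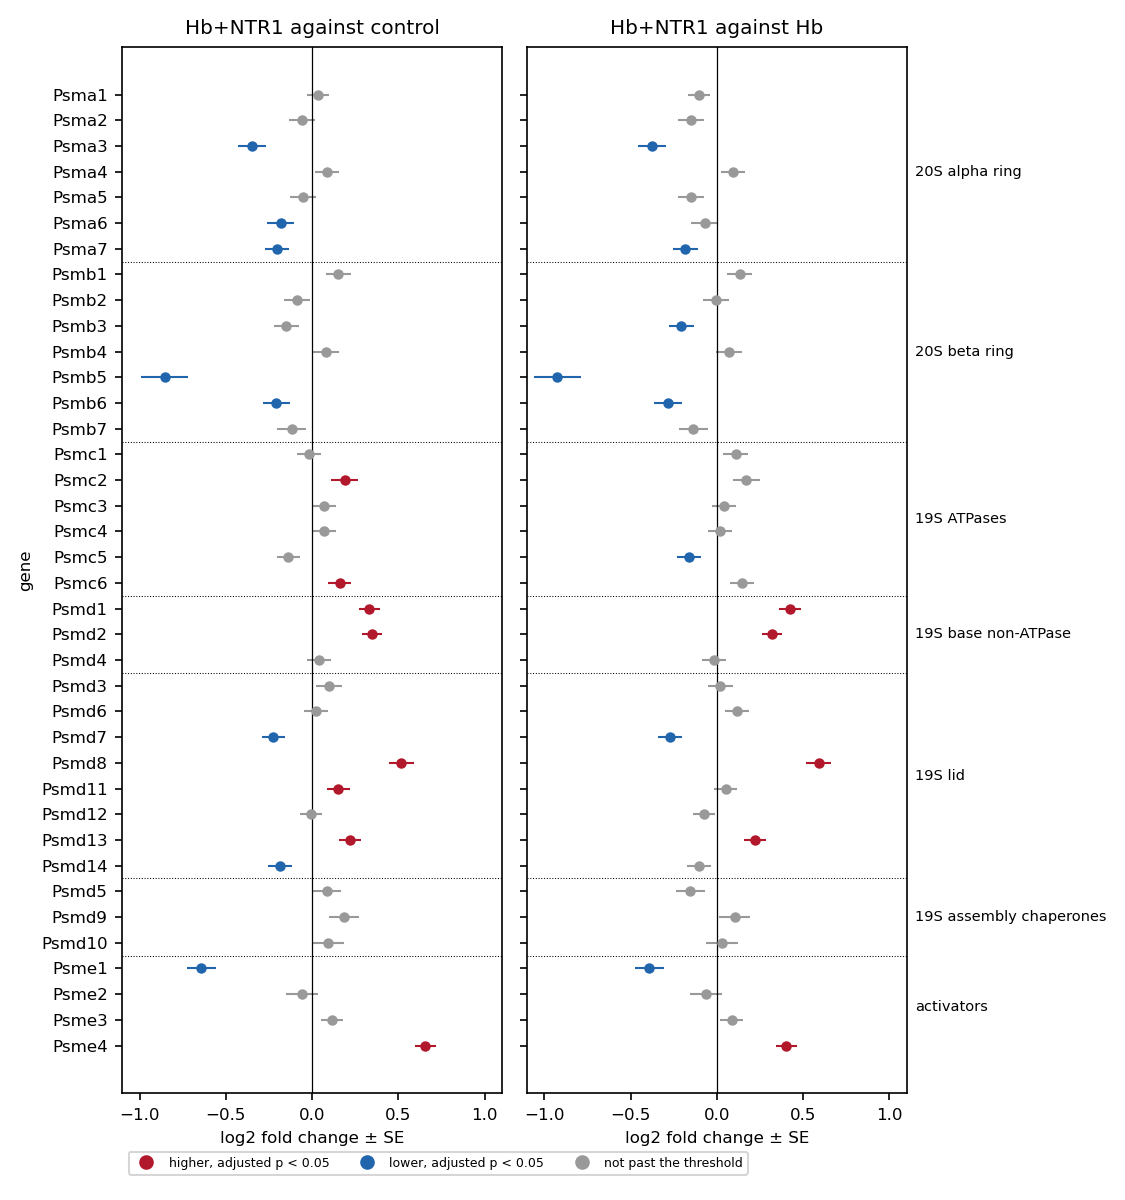
Points are edgeR log2 fold changes with SE bars for each proteasome gene, by role, for Hb+NTR1 against control (left) and against Hb (right), coloured by the test. Both panels use the same 3 Hb+NTR1 libraries. The scaffold genes Psmd1 and Psmd2 and the lid gene Psmd8 lie right of 0, Psmb5 lies farthest left, and Psme1 and Psme4 lie on opposite sides.

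Among the activators, Psme4 rose, as described above, while Psme1, the PA28 alpha subunit, fell. Psme1 had 52.4, 53.6 and 49.5 CPM in control, 43.1, 45.9 and 41.8 in Hb and 30.8, 35.2 and 33.7 in Hb+NTR1, from 450 to 870 raw counts. The 3 groups did not overlap, with control highest and Hb+NTR1 lowest. Psme1 was 1.56-fold below control with Hb+NTR1, log2 fold change -0.64 (SE 0.08, edgeR adjusted p = 3.17e-07), and 1.31-fold below Hb, log2 fold change -0.39 (SE 0.08, edgeR adjusted p = 0.000263). Between Hb and control the difference was -0.25 (SE 0.08, edgeR adjusted p = 0.093), and among the alternatives it passed only without the second Hb library, at -0.29 (edgeR adjusted p = 0.0267). Psme1 shares 11.3% of its 50-base stretches with other genes, and the largest share, with the pseudogene Gm7776, goes to a row at 0 counts.

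Psme2 encodes PA28 beta, which joins PA28 alpha in one ring, and did not follow Psme1. It had 39.2, 37.2 and 39.9 CPM in control, 34.8, 40.6 and 41.3 in Hb and 37.97, 40.8 and 32.9 in Hb+NTR1. The groups overlapped, with log2 fold changes of -0.06 (SE 0.09) both against control and against Hb. Psme2 shares 54.92% of its 50-base stretches with Psme2b, whose row was lower with Hb+NTR1 than in control, at 12.2 ± 2.59 against 16.1 ± 0.677 CPM (edgeR log2 fold change -0.40, adjusted p = 0.0154). The 2 rows together had 54.9 ± 0.868 CPM in control and 49.4 ± 6.38 in Hb+NTR1, and their ranges of 54.1 to 55.8 and 43.2 to 56.0 overlapped. Because of the shared sequence, the level of Psme2 is uncertain.

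Psme3, the nuclear activator PA28 gamma, had 226, 230.0 and 227 CPM in control, 244, 240.0 and 213 in Hb and 231, 253 and 255 in Hb+NTR1. Its Hb+NTR1 libraries were all above control and overlapped with Hb, and the difference from control did not pass, at 0.11 (SE 0.07, edgeR adjusted p = 0.128). It passed when library totals alone scaled the counts, at 0.18 (adjusted p = 0.0164), and in a fit to the 6 libraries compared, at 0.11 (adjusted p = 0.0379). Summed over the activators, the level was 587.0 ± 2.15 CPM in control, against 635 ± 6.31 in Hb and 740.5 ± 11.8 in Hb+NTR1, with no overlap between any groups, and Psme4 alone went from 268.6 in control to 423.5 in Hb+NTR1.

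**Figure D4:**
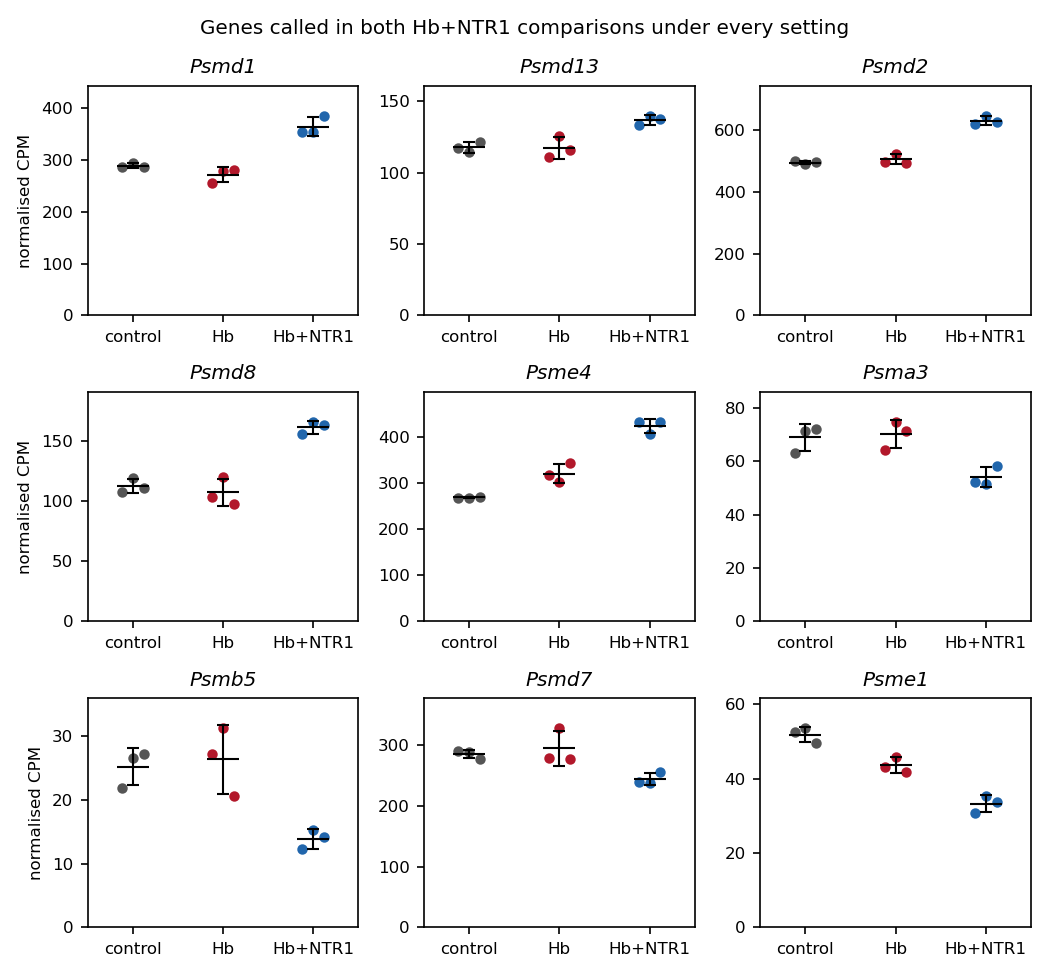
Normalised CPM in each library, with mean and SD of 3 libraries, for the 9 proteasome genes that passed in both Hb+NTR1 comparisons under all 16 alternatives, on axes that start at 0. Psmd1, Psmd13, Psmd2, Psmd8 and Psme4 are highest, and Psma3, Psmb5, Psmd7 and Psme1 lowest, in the Hb+NTR1 libraries.

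The change was compared with exonic length and with shared sequence, which the choice of genes did not use. Against control, the log2 fold change had a Spearman rho of 0.612 with exonic length over the 38 genes and of 0.122 over 13620 genes with a gene model. Against Hb the values were 0.441 and 0.126, and for Hb against control 0.257 and 0.0167. The genes share libraries and are not independent replicates, so these values are descriptions. The 8 higher genes had a median exonic length of 4534 bases, in a range of 3057 to 8382, and the 8 lower genes one of 2235 bases, in a range of 899 to 3894. The 22 others had a median of 2628 bases. Over all genes, the median log2 fold change against control ran from -0.19 in the shortest length quintile, up to 1953 bases, to 0.08 in the longest, from 7154 bases. RNA integrity was not recorded in the labels, and the part of length in these results was not tested.

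**Figure D5:**
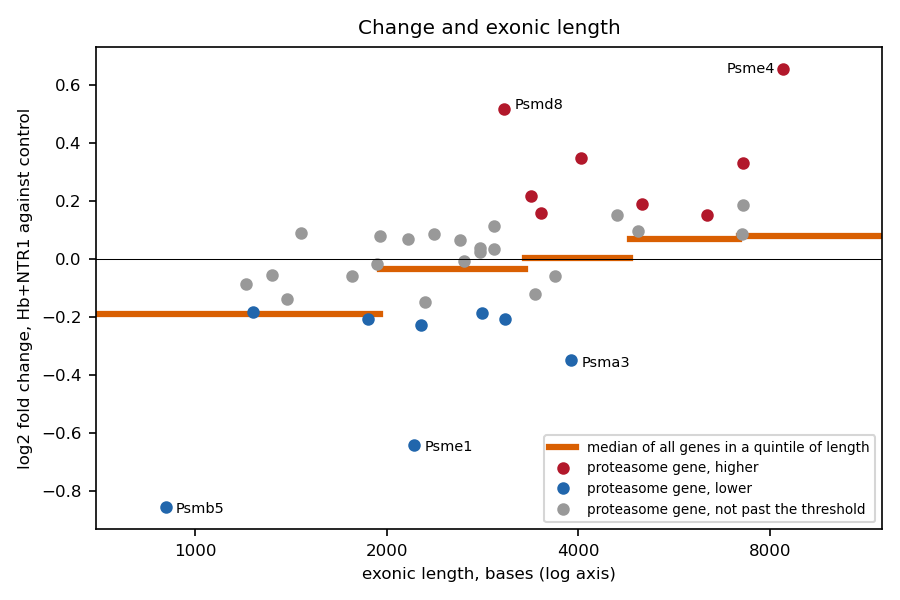
Each point is a proteasome gene, with exonic length in bases on a log axis and the edgeR log2 fold change of Hb+NTR1 against control, coloured by the test. Orange lines are medians of all genes in quintiles of exonic length, from -0.19 to 0.08. Exonic length is the union of exons over all annotated transcripts, not the length of the RNA made. Higher genes have an exonic length of at least 3057 bases, and Psmb5, at 899 bases, has the shortest and is lowest.

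Of the 38 genes, 17 shared no 50-base stretch with another gene, 9 shared under 10% and 12 shared 10% or more. Among the 17, 3 were higher and 3 lower with Hb+NTR1 than in control, with a median log2 fold change of 0.04. Among the 12, 3 were higher and 3 lower, with a median of -0.06. These counts stand beside 31.4% of all genes called higher and 32.2% called lower. Exons of 9 genes overlap another gene on the opposite strand, and without a stated strand setting the reads of such pairs cannot be told apart.

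The immunoproteasome subunits, which replace the catalytic subunits after interferon, were near the limit of detection or did not pass. Psmb8, the counterpart of Psmb5, had 0 counts in the 3 control libraries and in 1 Hb and 1 Hb+NTR1 library, and 1 to 3 in the rest, and it was not tested. Psmb9 stood at 1.84 ± 0.343 CPM in control, against 1.85 ± 0.683 in Hb and 1.46 ± 0.201 in Hb+NTR1, and Psmb10 at 14.6 ± 1.88, 14.5 ± 2.43 and 15.8 ± 0.375 CPM. All 3 groups overlapped for both genes, and neither passed in any comparison by edgeR or DESeq2, nor at an unadjusted p under 0.05. Of the immune markers, Cd68 averaged 3.35 CPM in control, against 5.24 in Hb and 45.1 in Hb+NTR1, and its part in these results was not tested. Ptprc, Itgam, Aif1 and Cd3e stayed under 1 CPM in every group mean, Cd3e at 0 counts throughout.

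Genes around the proteasome were read from lists that were chosen with earlier results of these data known, so their counts are descriptions. Of 11 genes for proteasome-associated proteins with a row that could be tested, 8 were higher and 1 lower than in control with Hb+NTR1, with a median log2 fold change of 0.30, and 9 were higher and 1 lower than in Hb, with a median of 0.32. These counts stand beside 63.6% of all genes called against control (31.4% higher, 32.2% lower) and 62.3% against Hb (30.7%, 31.6%). The call of Uchl5 against control ended without the first or the third control library, at edgeR adjusted p of 0.195 and 0.105. It also ended without the first or the third Hb+NTR1 library, at 0.0714 and 0.134. Txnl1 lost its call against control without the first or the second control library, at 0.0582 and 0.0608. Zfand2a, or AIRAP, an arsenite-inducible proteasome binder, had 50.9, 51.7 and 53.1 CPM in control, 51.6, 54.0 and 54.2 in Hb and 168, 174 and 184 in Hb+NTR1. It was 3.38-fold above control, log2 fold change 1.76 (SE 0.07, edgeR adjusted p = 1.52e-16), and 3.29-fold above Hb. Zfand5, a proteasome activator of the same family, was 1.18-fold higher in Hb than in control (edgeR adjusted p = 0.0284) and 1.59-fold higher with Hb+NTR1 (adjusted p = 2.26e-09). The first of these calls ended without any 1 of the control libraries, at log2 fold changes of 0.24, 0.25 and 0.24 with edgeR adjusted p of 0.117, 0.115 and 0.135, without the third Hb library, at 0.20 (0.104), and without the third Hb+NTR1 library, at 0.24 (0.0504).

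Usp14, a deubiquitinase that docks on the scaffold Psmd2, had 324, 339 and 341 CPM in control, 387, 444 and 422 in Hb and 514, 493 and 489 in Hb+NTR1, with no overlap between groups. It was 1.247-fold above control in Hb, log2 fold change 0.32 (SE 0.06, edgeR adjusted p = 0.00319), and 1.49-fold above control with Hb+NTR1, log2 fold change 0.57 (SE 0.06, edgeR adjusted p = 2.8e-08). Its exons overlap Thoc1 on the opposite strand over 2169 bases, so its level is uncertain. Psmf1, the inhibitor PI31, had 35.0, 32.9 and 34.2 CPM in control, 33.3, 29.7 and 29.0 in Hb and 40.5, 40.2 and 44.8 in Hb+NTR1, and was 1.23-fold above control (edgeR adjusted p = 0.0042). Adrm1, the ubiquitin receptor Rpn13, had 62.3, 63.5 and 58.6 CPM in control, 75.3, 74.0 and 52.8 in Hb and 48.5, 57.7 and 56.1 in Hb+NTR1. It did not pass against control, at -0.18 (SE 0.10, edgeR adjusted p = 0.124), passed without the third Hb library, at -0.19 (adjusted p = 0.0386), with no filter on low counts, at -0.20 (0.0456), and in a fit to the 6 libraries compared, at -0.19 (0.0124), and was lower than in Hb, at -0.32 (adjusted p = 0.0102). The call against Hb ended without the first Hb library, at 0.0763, and without the first Hb+NTR1 library, at 0.0729. Adrm1 shares 77.99% of its 50-base stretches with Gm9774.

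Of 6 factors that assemble the core or the ATPase ring, 5 could be tested. Psmg1 and Psmg3 were lower with Hb+NTR1 than in control, beside 32.2% of all genes, and the other 3 did not pass. Their log2 fold changes were -0.53 (edgeR adjusted p = 0.000124) and -0.68 (edgeR adjusted p = 0.0327). The call of Psmg3 ended without the second or the third control library, at adjusted p of 0.0718 and 0.104, and without the first or the third Hb+NTR1 library, at 0.0723 and 0.134. Pomp, the maturation factor of the core, had 110, 107 and 104 CPM in control, 96.0, 116 and 96.5 in Hb and 105, 115 and 114 in Hb+NTR1 and did not pass, at 0.06 (SE 0.07). Without the second Hb library it was higher than in Hb, at 0.21 (edgeR adjusted p = 0.00516). Of 6 shuttle receptors that carry ubiquitylated proteins to the cap, 2 were higher and 4 lower than in control, beside 31.4% and 32.2% of all genes. The calls of both higher genes, Ubqln2 and Ddi2, ended without the second control library, at adjusted p of 0.0831 and 0.0759, and without the third Hb+NTR1 library, at 0.0544 and 0.0926. That of Ubqln2 also ended without the first control library, at 0.121, and the second Hb+NTR1 library, at 0.0739. Among the lower genes, the call of Ubqln1 ended without any 1 of the control libraries or the first Hb+NTR1 library, at adjusted p of 0.0511 to 0.151. Ubqln4 was 1.58-fold lower, at 78.3 ± 4.54 against 124 ± 5.85 CPM (edgeR adjusted p = 3.49e-08).

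Nfe2l1, which encodes NRF1, had 342, 349.5 and 336 CPM in control, 333, 339 and 340.3 in Hb and 341, 375 and 386 in Hb+NTR1. It did not pass against control, at 0.10 (SE 0.06, edgeR adjusted p = 0.162), or against Hb, at 0.12 (SE 0.06, edgeR adjusted p = 0.0876). It passed with library totals alone, at 0.16 and 0.15 (adjusted p = 0.0173 and 0.0315), and against Hb without the first Hb+NTR1 library, at 0.18 (edgeR adjusted p = 0.0283). Of the 6 genes listed for NRF1 and its processing, 3, Ngly1, Sel1l and Ddi2, were higher than in control, beside 31.4% of all genes called higher. Ddi2 was also counted among the shuttle receptors. Its call ended without the second control library, at edgeR adjusted p of 0.0759, and without the third Hb+NTR1 library, at 0.0926. The other 3 did not pass, so 50% were called, against 63.6% of all genes. Ngly1, which removes the sugars of NRF1, was 1.66-fold higher (edgeR adjusted p = 1.64e-06). Nfe2l2, which encodes NRF2, had 60.0, 65.4 and 75.0 CPM in control, 59.3, 62.1 and 60.3 in Hb and 160.4, 159.9 and 152 in Hb+NTR1, which was above all other libraries. It was 2.36-fold above control, log2 fold change 1.24 (SE 0.07, edgeR adjusted p = 6.54e-13), and did not pass between Hb and control, at -0.14 (SE 0.08).

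Upstream of the proteasome, the ubiquitin-activating enzymes moved in opposite directions. Uba1, which charges most of the ubiquitin in the cell, was 1.35-fold lower with Hb+NTR1 than in control, at 501 ± 6.89 against 676 ± 10.0 CPM (edgeR adjusted p = 6.11e-07). Uba6 was 1.90-fold higher, at 178 ± 6.60 against 93.9 ± 3.78 CPM (edgeR adjusted p = 7.21e-11). Of 6 cofactors of the unfoldase p97, 4 were higher and 1 lower than in control, beside 31.4% and 32.2% of all genes. Faf1 was higher at 1.39-fold (edgeR adjusted p = 2.81e-06) and Ubxn1 lower at 1.28-fold (edgeR adjusted p = 0.000253).

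The authors' deposited table of Hb+NTR1 against control lists 691 genes, and 0 of the 38 proteasome genes are among them. The smallest absolute log2 fold change in the authors' deposited table is 2.005, which is above that of every proteasome gene here.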

How the data were processed

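Poly(A)-selected RNA of 9 libraries was sequenced on an Illumina NovaSeq. Per the submitters' processing notes the tools were bcl2fastq 2.19.1.403, HISAT2 2.1.0 and HTSeq 0.10.0 with genome GRCm38. The sources used here do not give the annotation release, the use of strand or the handling of multi-mapped reads. The authors deposited raw counts per gene symbol, with no normalisation. Of 54232 entries, 98 that repeated a symbol and all its counts were removed. The authors also deposited a table of Hb+NTR1 against control with counts, log2 fold changes, p-values and adjusted p-values, and its columns tied the library names to the groups.

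Counts were fitted in R 4.3.3 with edgeR 4.0.16 over all 9 libraries, with TMM scaling and a robust quasi-likelihood fit. The filter filterByExpr, at a minimum count of 10, passed 13810 genes. Tests were two-sided with Benjamini-Hochberg adjustment over those genes and a threshold of 0.05. The common biological coefficient of variation was 6.90%. The procedure was tested on simulated data. Gene models came from GENCODE M21 and promoters from RefSeq. Per-library values were given for a fixed set of catalytic, scaffold, activator and regulator genes and for the 4 largest rises and falls of each comparison. Genes named for a call that 1 library ended, for near copies or as examples of a related list were chosen after their values were seen. The genes and the lists were chosen with earlier results of these data known. Library totals ran from 13415648 to 16893746 counts. Each SE came from the quasi-likelihood test and takes in the spread between libraries as well as counting error. Whether that spread is the spread between cultures is not known. Alternatives were DESeq2 1.42.0, its size factors in edgeR, no low-count filter, a filter of at least 1 CPM in at least 3 libraries, library totals alone, the 6 libraries of a comparison, a replicate block, and leaving out each library. Some members of the related gene lists are not reported here.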

Additional observations from a re-analysis of the deposited data

How the results depend on the processing

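Of 38 proteasome genes, 9 passed the test in both Hb+NTR1 comparisons under all 16 alternatives: Psmd1, Psmd2, Psmd8, Psmd13 and Psme4 higher, Psma3, Psmb5, Psmd7 and Psme1 lower. With library totals alone, 8 genes were higher than in Hb, beside 32.3% of all genes, and 4 were lower than in control, beside 28.5%. Psma4, Psmb1, Psmd9 and Psme3 joined the genes higher than in control, beside 34.9% of all genes. The lower calls of Psma6, Psma7, Psmb6 and Psmd14 against control were lost. The replicate numbers did not pair the libraries: the deviations of same-numbered libraries correlated at -0.0453 to 0.118, and 3 of 9 libraries correlated best with their own number. With the number as a block, 1 gene was higher and 0 were lower in Hb, beside 2.29% and 2.38% of all genes. Higher and lower calls numbered 7 and 8 against Hb, beside 31.2% and 31.9% of all genes. Against control they numbered 9 and 9, beside 31.9% and 32.5%.

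With 1 library left out, the calls higher in Hb than in control ran from 0 to 2 genes, those lower from 0 to 3, and those over all genes from 285 to 1125. Against Hb the proteasome calls ran from 5 to 12 higher and 5 to 14 lower, and against control from 5 to 10 and from 4 to 10. Calls over all genes ran from 7909 to 8659 against Hb and from 8006 to 9358 in Hb+NTR1 against control. The cause of these moves was not tested.

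No called log2 fold change of a proteasome or related gene changed sign under any alternative. Of the 38 proteasome genes, 20 changed sign under at least 1 alternative in Hb against control, 16 of them without the second Hb library, 8 against Hb and 6 in Hb+NTR1 against control. Among genes described by library that did not pass, library totals alone turned Nfe2l1 to 0.0163 and Psmb10 to 0.0226 in Hb against control, Psmd4 to 0.00782 against Hb and Psme2 to 0.00568 in Hb+NTR1 against control. With no low-count filter Psme2 in Hb turned to -0.00103. With 1 library left out, the log2 fold change of Hb against control ran from -0.0716 to 0.219 for Psmb5, -0.0335 to 0.132 for Psmb6, -0.0635 to 0.0995 for Psmb7, -0.237 to 0.279 for Psmb9, -0.165 to 0.0984 for Psmb10, -0.0335 to 0.122 for Psmd4, -0.0399 to 0.0785 for Psme2 and -0.00888 to 0.0883 for Psme3. Psmd4 ran from -0.0846 to 0.0689 and Psme2 from -0.142 to 0.0215 against Hb, and Psme2 from -0.128 to 0.0246 against control. Depth limits Psmb8, which had at most 3 counts in a library.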
